A study of Mus musculus with 8 samples.

Results

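The 9 genes described here encode the CD3 complex of the T cell receptor (TCR) and the proteins that act closest to it. They were taken by name from the 54532 genes of the count file, and all 9 were among the 17138 genes with enough counts to be tested. Cd3d, Cd3e, Cd3g and Cd247 encode the signaling chains CD3 delta, CD3 epsilon, CD3 gamma and CD3 zeta. Cd4 encodes a coreceptor, Lck and Zap70 encode tyrosine kinases, Lat encodes an adaptor, and Tbx21 encodes T-bet, the transcription factor of T helper 1 (Th1) cells. RNA was sequenced from the whole lungs of 14-week-old CC-LR mice, 4 of them controls and 4 given the STAT3 inhibitor TTI-101 for 4 weeks, with 1 library per mouse. Every mouse of both groups, controls included, carried the LSL-K-ras G12D allele with Cre recombinase driven from the club cell secretory protein locus on a C57BL/6 background. Mutant K-ras is thereby switched on in lung epithelium, and tumors arise spontaneously. The labels name neither the sex of a mouse nor the route of TTI-101, and the study used mice of both sexes.

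The TCR itself has almost no cytoplasmic tail and depends on the CD3 chains to pass its signal into the T cell. When the receptor meets antigen, LCK, which is carried by CD4 or CD8, phosphorylates paired tyrosines in the tails of the CD3 chains. ZAP-70 docks on these tyrosines and phosphorylates LAT, on which further adaptors and phospholipase C gamma assemble. T-bet is induced by TCR and interferon signals, and it is also made by NK cells.

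The paired tyrosines lie in a short motif, the immunoreceptor tyrosine-based activation motif (ITAM), and the stretches that encode it are printed because they are the feature that the 4 CD3 genes share. A search of the GENCODE M21 coding sequences of GRCm38 took a tyrosine codon, 2 codons and a leucine or isoleucine codon. The same pattern had to follow after a short gap, which was 7 or 8 codons long in the matches. This search found 1 ITAM each in Cd3d, Cd3e and Cd3g and 3 in Cd247. The capitals mark the codons for tyrosine and for leucine or isoleucine. Each stretch was spliced from 2 exons, so its genomic span is longer than the stretch.
Cd3d (chr9:44986095-44986311, plus strand): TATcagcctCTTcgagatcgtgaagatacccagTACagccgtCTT
Cd3g (chr9:44970735-44971268, minus strand): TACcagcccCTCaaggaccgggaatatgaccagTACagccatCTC
Cd3e (chr9:44999549-45000440, minus strand): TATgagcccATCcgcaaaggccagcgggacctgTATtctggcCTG
Cd247, first (chr1:165856451-165857454, plus strand): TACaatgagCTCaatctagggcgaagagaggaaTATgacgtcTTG
Cd247, second (chr1:165858473-165859260, plus strand): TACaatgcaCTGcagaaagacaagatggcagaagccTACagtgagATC
Cd247, last (chr1:165859819-165861042, plus strand): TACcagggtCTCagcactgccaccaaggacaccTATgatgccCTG

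The ITAM stretches of Cd3d and Cd3g were the most alike, with 32 of 45 bases identical (71.1%). The other pairs of stretches of 45 bases had 26.7% to 53.3% of bases identical. Cd3g and Cd3d also lie next to each other on chromosome 9 and are transcribed away from each other, with 1355 bases between their starts. Cd3e starts 27825 bases from Cd3d.

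The promoters of these 3 neighbors are printed because their transcripts were read side by side in every mouse. Each is the window of 250 bases before the start in RefSeq on GRCm38.p6, and 8 of the 9 genes, all but Cd4, had an entry in that table, with 11 starts in all. The capitals mark, on either strand, the letters GGAAGT (bound by ETS factors) and CAGGTG (an E-box).
Cd3g (chr9:44980432-44980681, minus strand): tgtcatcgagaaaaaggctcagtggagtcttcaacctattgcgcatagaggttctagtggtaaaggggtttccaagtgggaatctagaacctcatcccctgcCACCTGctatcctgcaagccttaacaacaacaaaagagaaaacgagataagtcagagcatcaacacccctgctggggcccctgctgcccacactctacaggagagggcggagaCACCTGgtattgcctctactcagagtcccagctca
Cd3d (chr9:44981536-44981785, plus strand): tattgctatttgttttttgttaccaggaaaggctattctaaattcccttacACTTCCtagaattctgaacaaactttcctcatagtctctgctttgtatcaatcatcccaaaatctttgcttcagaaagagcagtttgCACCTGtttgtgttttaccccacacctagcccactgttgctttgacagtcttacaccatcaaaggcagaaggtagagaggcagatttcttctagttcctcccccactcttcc
Cd3e (chr9:45009612-45009861, minus strand): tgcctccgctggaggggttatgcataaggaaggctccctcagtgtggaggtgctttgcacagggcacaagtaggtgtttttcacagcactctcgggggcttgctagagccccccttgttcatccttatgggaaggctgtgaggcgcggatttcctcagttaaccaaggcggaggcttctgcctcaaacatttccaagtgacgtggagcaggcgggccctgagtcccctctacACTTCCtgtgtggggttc

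GGAAGT was found in 7 of the 11 member windows and in 19.7% of the 32851 promoter windows of the table. CAGGTG was found in 7 of the 11 and in 17.2% of all windows. TGTGGT, the letters bound by RUNX factors, was found in 2 of the 11, 1 window each of Lck and Zap70, and in 14.0% of all windows. Neither GGTGTGA, a T-box half-site, nor TATAAA was found in any of the 11, while 3.33% and 12.4% of all windows hold them. All letters were searched on both strands, no motif's letters contain those of another, and a match is a description of the sequence only.

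Total counts per library ranged from 16075855 to 26873509, and levels are given as CPM, counts scaled to a common library size by TMM in edgeR. The groups were tested against each other with the quasi-likelihood F-test of edgeR, and its adjusted p-values are Benjamini-Hochberg values over all 17138 genes. Control 4 stood apart: mitochondrial genes held 5.56% of its counts against 2.01% to 2.85% in the other 7 libraries, and its score on the first principal component was 101 against -39.3 to 17.9. Lung epithelial markers were abundant in every library, with Sftpc (surfactant protein C) at 16673 to 40617 CPM and Scgb1a1 (club cell secretory protein) at 10013 to 31148 CPM. Both were highest in Control 4, as was Epcam, another epithelial marker, at 75.1 to 272 CPM. The log2 fold change, TTI-101-treated over control, was -0.75 for Scgb1a1, with a standard error (SE) of 0.33. It was -0.70 (SE 0.30) for Epcam and -0.40 (SE 0.31) for Sftpc, all with adjusted p-values of 0.657 or higher in edgeR. Xist was at 400 to 450 CPM in mice 1 and 2 of both groups and at 0.167 to 2.11 CPM in mice 3 and 4 of both groups. Stat3, the gene of the drug's target, had a log2 fold change of -0.08 (SE 0.15, adjusted p = 0.886 in edgeR). The compound inhibits the protein, so this transcript does not check the treatment.

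All 9 genes had a higher mean in TTI-101-treated than in control lungs, and no difference passed the test for all genes together. The log2 fold changes ran from 0.21 for Zap70 to 1.04 for Tbx21, with a median of 0.54 against 0.00 for all genes tested. A positive log2 fold change was found in 9 of 9 members and in 50.6% of all genes tested. In edgeR's quasi-likelihood test, 0 of 9 members had an adjusted p under 0.05, as had 0 of all genes tested (0%), and the lowest adjusted p of a member was 0.657. At an unadjusted p under 0.05 the same test had 0 of 9 members, where 3.02% of all genes tested passed with higher expression, 3.58% with lower expression and 6.61% in either direction. DESeq2's Wald test had 2 of 9, Lck and Tbx21, at an unadjusted p under 0.05, where 2.63% of the genes it tested passed in that direction, and 0 of 9 at an adjusted p under 0.05, where 0.0126% passed. No member had every TTI-101-treated mouse above every control mouse, an order that held for 1.53% of all genes tested, and none had every treated mouse below every control mouse, which held for 1.43%. In whole lung RNA, more T cells, more RNA per T cell and less RNA from other cells cannot be told apart.

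The count of members at an unadjusted p under 0.05 depended on single mice in edgeR's quasi-likelihood test. Without Control 1, the control mouse with the highest level of most members, it was 4 (Cd3e, Cd247, Cd4 and Lck), where 7.15% of all genes tested passed in that direction, and the lowest adjusted p of a member was 0.294. Without Control 4 it was 1 (Tbx21), against 1.92% of all genes, and without TTI-101 2 it was 1 (Lck), against 6.63% of all genes. The median log2 fold change of the 9 members was 0.99 without Control 1 and 0.32 without Control 4.

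**Figure D1:**
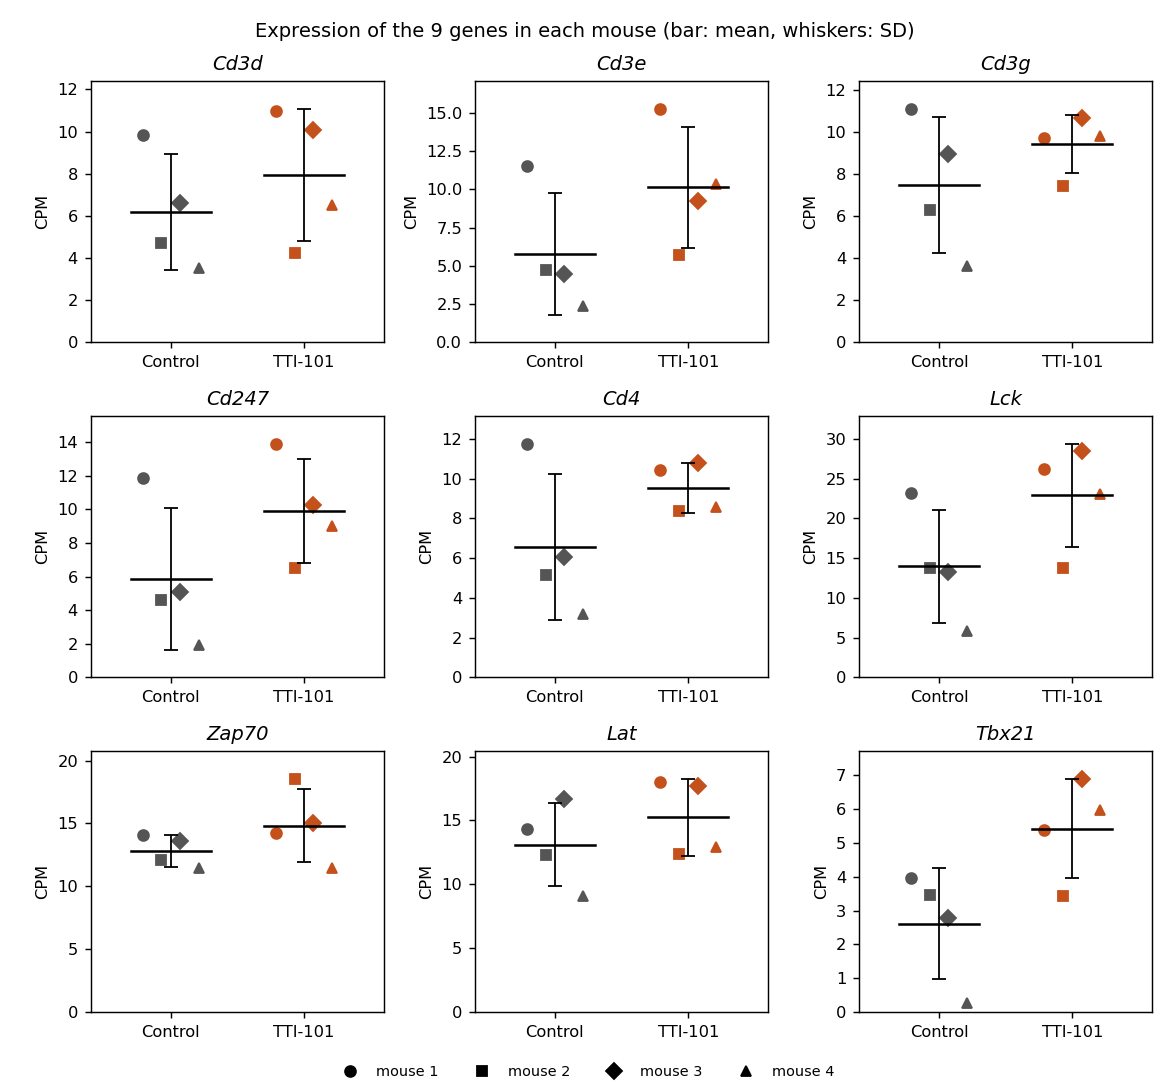
CPM of each of the 9 genes in each mouse, with the mean (bar) and SD (whiskers) of the 4 control and 4 TTI-101-treated mice. The groups overlap for every gene, Control 4 (triangle) is the lowest of the 8 mice in all 9 panels, and Control 1 (circle) is the highest control mouse in 8 of 9.

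The chains of the CD3 complex are the proteins by which T cells are recognized. Cd3e (ENSMUSG00000032093, chromosome 9, 44998740 to 45009627, minus strand) encodes the chain that pairs with both CD3 delta and CD3 gamma. It was at 11.5, 4.72, 4.49 and 2.37 CPM in control mice 1 to 4 and at 15.3, 5.70, 9.23 and 10.3 CPM in TTI-101-treated mice 1 to 4. Control 1 lay above 3 of the 4 treated mice, and the other control mice lay below all treated mice. The means were 5.78 ± 3.97 CPM and 10.1 ± 3.95 CPM (SD, n = 4 each), for a log2 fold change of 0.80 with a 95% interval of -0.20 to 1.81 (edgeR's quasi-likelihood test, adjusted p = 0.657). Without Control 4 the log2 fold change was 0.56, and without Control 1 it was 1.39.

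Cd247 (ENSMUSG00000005763, chromosome 1, 165788681 to 165877277, plus strand) encodes CD3 zeta, the chain with 3 ITAMs. It was at 11.9, 4.60, 5.10 and 1.92 CPM in control mice 1 to 4 and at 13.9, 6.49, 10.3 and 9.0 CPM in treated mice 1 to 4. As for Cd3e, Control 1 lay among the treated mice and the other control mice lay below all of them. The log2 fold change was 0.75 with a 95% interval of -0.28 to 1.77 (edgeR's quasi-likelihood test, adjusted p = 0.661), and it was 0.47 without Control 4 and 1.36 without Control 1 (unadjusted p = 0.00559 in the same edgeR test). The gene overlaps Pou2f1, a gene on the opposite strand, over 12124 bases, and the 8 libraries held 3258 counts of Pou2f1 and 1332 of Cd247. The strand setting of the counting is not given in the sources used here, so reads from the overlap cannot be assigned with certainty.

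Cd3d (ENSMUSG00000032094, chromosome 9, 44981786 to 44987339, plus strand) was at 9.83, 4.72, 6.60 and 3.52 CPM in control mice 1 to 4 and at 11.0, 4.26, 10.1 and 6.51 CPM in treated mice 1 to 4. Treated mice 1 and 3 were above all controls, and treated mouse 2 was below 3 of the 4 controls. This gave a log2 fold change of 0.36 with a 95% interval of -0.47 to 1.20 (edgeR's quasi-likelihood test, adjusted p = 0.778), and it was 0.17 without TTI-101 1, 0.18 without Control 4 and 0.69 without Control 1. Cd3g (ENSMUSG00000002033, chromosome 9, 44969572 to 44980431, minus strand) was at 11.1, 6.28, 8.93 and 3.65 CPM in control mice 1 to 4 and at 9.72, 7.45, 10.7 and 9.79 CPM in treated mice 1 to 4. No treated mouse was above Control 1. The treated mice lay closer together than the controls, with an SD of 1.38 against 3.23 CPM. The log2 fold change was 0.32 with a 95% interval of -0.37 to 1.02 (edgeR's quasi-likelihood test, adjusted p = 0.758), and it was 0.11 without Control 4 and 0.58 without Control 1. No annotated gene overlaps Cd3d or Cd3g. The divergent pair had the smallest log2 fold changes of the 4 CD3 genes, with 95% intervals that overlapped those of Cd3e and Cd247.

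Cd4 (ENSMUSG00000023274, chromosome 6, 124864692 to 124888221, minus strand), the coreceptor for MHC class II, marks helper and regulatory T cells and is also made by some dendritic cells of the mouse. It was at 11.7, 5.14, 6.05 and 3.20 CPM in control mice 1 to 4 and at 10.4, 8.35, 10.8 and 8.58 CPM in treated mice 1 to 4. The treated mice lay within a narrow range above control mice 2 to 4, and Control 1 was the highest of all 8. The means were 6.53 ± 3.67 CPM and 9.54 ± 1.25 CPM (SD, n = 4 each), for a log2 fold change of 0.54 with a 95% interval of -0.24 to 1.31 (edgeR's quasi-likelihood test, adjusted p = 0.670). It was 0.32 without Control 4 and 0.99 without Control 1 (unadjusted p = 0.0049 in the same edgeR test).

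Cd8a, which encodes a chain of the coreceptor for MHC class I, is shown beside Cd4. It was at 13.8, 5.50, 3.72 and 1.92 CPM in control mice 1 to 4 and at 16.3, 5.58, 15.8 and 12.0 CPM in treated mice 1 to 4. Treated mice 1 and 3 were above all controls, and treated mouse 2 was level with Control 2. The log2 fold change was 0.98 (SE 0.54, adjusted p = 0.657 in edgeR), and it was 0.69 without Control 4 and 1.74 without Control 1.

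Lck (ENSMUSG00000000409, chromosome 4, 129548344 to 129573641, minus strand) encodes the kinase that starts the signal, and NK cells make it too. It was at 23.2, 13.7, 13.3 and 5.82 CPM in control mice 1 to 4 and at 26.2, 13.8, 28.5 and 23.1 CPM in treated mice 1 to 4. Treated mice 1 and 3 were above all controls, treated mouse 4 was just below Control 1, and treated mouse 2 was level with control mice 2 and 3. The means were 14.0 ± 7.12 CPM and 22.9 ± 6.46 CPM (SD, n = 4 each), for a log2 fold change of 0.71 with a 95% interval of -0.11 to 1.52. Lck had the lowest p of the 9 genes in edgeR's quasi-likelihood test (unadjusted p = 0.0822, adjusted p = 0.657). It was lower still in DESeq2's Wald test (unadjusted p = 0.0499, adjusted p = 0.938). Without Control 4 the log2 fold change was 0.46, and without Control 1 it was 1.07 (unadjusted p = 0.0110 in edgeR's test).

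Zap70 (ENSMUSG00000026117, chromosome 1, 36761798 to 36782818, plus strand) encodes the kinase that docks on the phosphorylated ITAMs, in T cells and NK cells. It was at 14.1, 12.1, 13.6 and 11.4 CPM in control mice 1 to 4 and at 14.2, 18.6, 15.0 and 11.5 CPM in treated mice 1 to 4. Treated mouse 2, the lowest treated mouse for the other 8 members, was the highest of all 8 mice for Zap70. The control mice lay closer together than for any other member in proportion to their mean, at 12.8 ± 1.26 CPM against 14.8 ± 2.91 CPM in treated mice (SD, n = 4 each). The log2 fold change of 0.21 had a 95% interval of -0.21 to 0.62, the narrowest of the 9 (edgeR's quasi-likelihood test, adjusted p = 0.743). It was 0.17 without Control 4 and 0.09 without TTI-101 2.

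Lat (ENSMUSG00000030742, chromosome 7, 126363824 to 126369570, minus strand) encodes the scaffold that ZAP-70 phosphorylates, and mast cells, platelets and NK cells make it as well. It was at 14.3, 12.3, 16.7 and 9.08 CPM in control mice 1 to 4 and at 18.0, 12.4, 17.7 and 13.0 CPM in treated mice 1 to 4. Lat was the only member for which Control 3, and not Control 1, was the highest control mouse. For Lat the log2 fold change was 0.22 with a 95% interval of -0.29 to 0.72 (edgeR's quasi-likelihood test, adjusted p = 0.778), and it was 0.09 without Control 4 and 0.35 without Control 3.

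Tbx21 (ENSMUSG00000001444, chromosome 11, 97098071 to 97115331, minus strand) had the fewest counts of the members, at 642 over the 8 libraries. It was at 3.96, 3.47, 2.77 and 0.256 CPM in control mice 1 to 4, where the last value rests on 4 counts, and at 5.39, 3.42, 6.89 and 5.96 CPM in treated mice 1 to 4. Of the treated mice, 3 were above all controls, and treated mouse 2 lay between Control 2 and Control 3. The log2 fold change of 1.04 had a 95% interval of -0.22 to 2.29, the widest of the 9 (edgeR's quasi-likelihood test, unadjusted p = 0.0956, adjusted p = 0.657). Without Control 4 it was 0.68 with an unadjusted p of 0.0440 in the same quasi-likelihood test, and without Control 1 it was 1.31 with an unadjusted p of 0.0608.

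**Figure D2:**
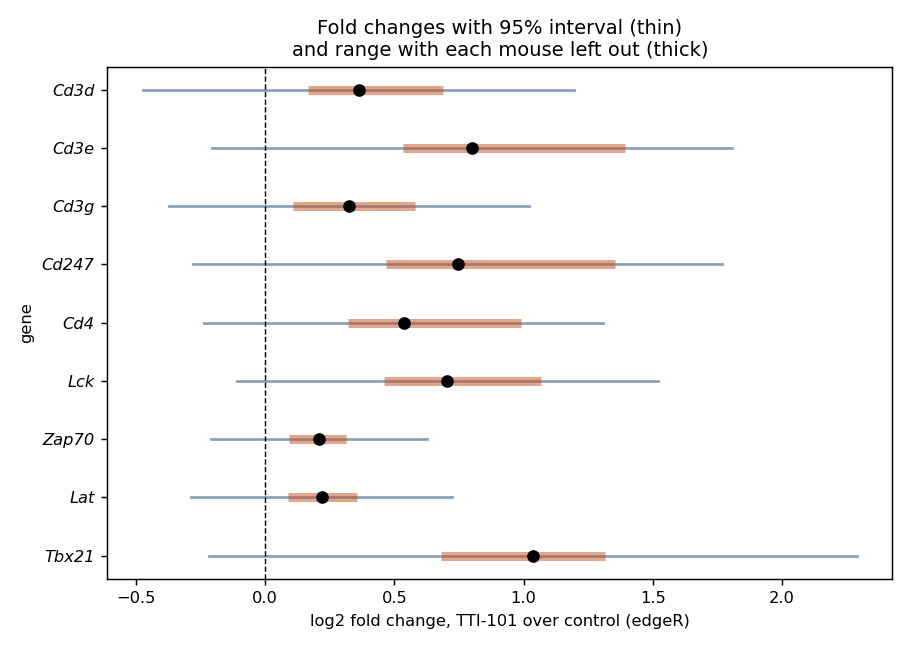
Log2 fold change of each gene, TTI-101-treated over control, from edgeR (point), with its 95% interval (thin line) and the range of the 8 values found when each mouse is left out in turn (thick line). Every point and every thick line lies above 0, and every thin line crosses 0.

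To ask whether a gene differed between the groups by another amount than Cd3e, the log2 CPM of Cd3e was subtracted from that of the gene in each mouse, which cancels the library scaling. Each difference was tested, two-sided, by exact permutation of the 8 mice (70 assignments, smallest possible p 0.0286). None of the 8 comparisons passed, and the lowest Benjamini-Hochberg adjusted p was 0.571 (exact permutation test). Cd247 followed Cd3e most closely, with a change in the difference of 0.03 between groups (p = 0.886, exact permutation test). Zap70 and Lat differed most from Cd3e. Zap70 relative to Cd3e was at 0.29, 1.33, 1.58 and 2.23 in control mice 1 to 4 and at -0.10, 1.68, 0.70 and 0.15 in treated mice 1 to 4, on the log2 scale. These values overlapped widely, and their group means differed by -0.75 (p = 0.229, exact permutation test), from -1.11 without TTI-101 2 to -0.46 without Control 4. Lat relative to Cd3e differed by -0.71 (p = 0.143, exact permutation test), and by -1.06 without Control 1 (p = 0.0286, exact permutation test, the smallest it can give and the one value past 0.05). Relative to Cd3e, Lck differed by -0.13 (p = 0.543), Cd4 by -0.26 (p = 0.371), Tbx21 by 0.50 (p = 0.543) and Cd8a by 0.28 (p = 0.286) in the same exact permutation test. The difference for Tbx21 ran from 0.02 without Control 4 to 0.81 without Control 2, that for Cd4 from -0.44 without TTI-101 2 to -0.08 without TTI-101 1, and that for Cd8a from 0.11 without TTI-101 3 to 0.38 without TTI-101 2. Cd4 relative to Cd8a differed by -0.54 (p = 0.171, exact permutation test), and by -0.82 without TTI-101 2. The signs for Lck and Cd4 turned when Cd3g or Cd3d took the place of Cd3e. Relative to Cd3g and to Cd3d, Zap70 differed by -0.24 and -0.18 and Lat by -0.20 and -0.14. Cd247 differed by 0.54 and 0.60, Tbx21 by 1.02 and 1.07 and Cd8a by 0.80 and 0.85. The closeness of Cd247 and the distance of Zap70 and Lat thus depended on the CD3 gene chosen.

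The same few mice were high or low for most members. Relative to the control mean, the median level of the 9 members was 1.59, 0.839, 1.06 and 0.487 in control mice 1 to 4 and 1.78, 0.995, 1.63 and 1.31 in treated mice 1 to 4. Control 4 was the lowest of the 8 mice for 9 of 9 members, as it was for 28.7% of all genes tested. Control 1 was the highest control mouse for 8 of 9. Among treated mice, TTI-101 2 was the lowest for 8 of 9, and TTI-101 1 and TTI-101 3 were each the highest for 4. The shares of all genes for these other mice were not computed, so their counts do not set the members apart from other genes. The summed CPM of the members was 41.3 to 112 in control and 80.4 to 124 in treated lungs.

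**Figure D3:**
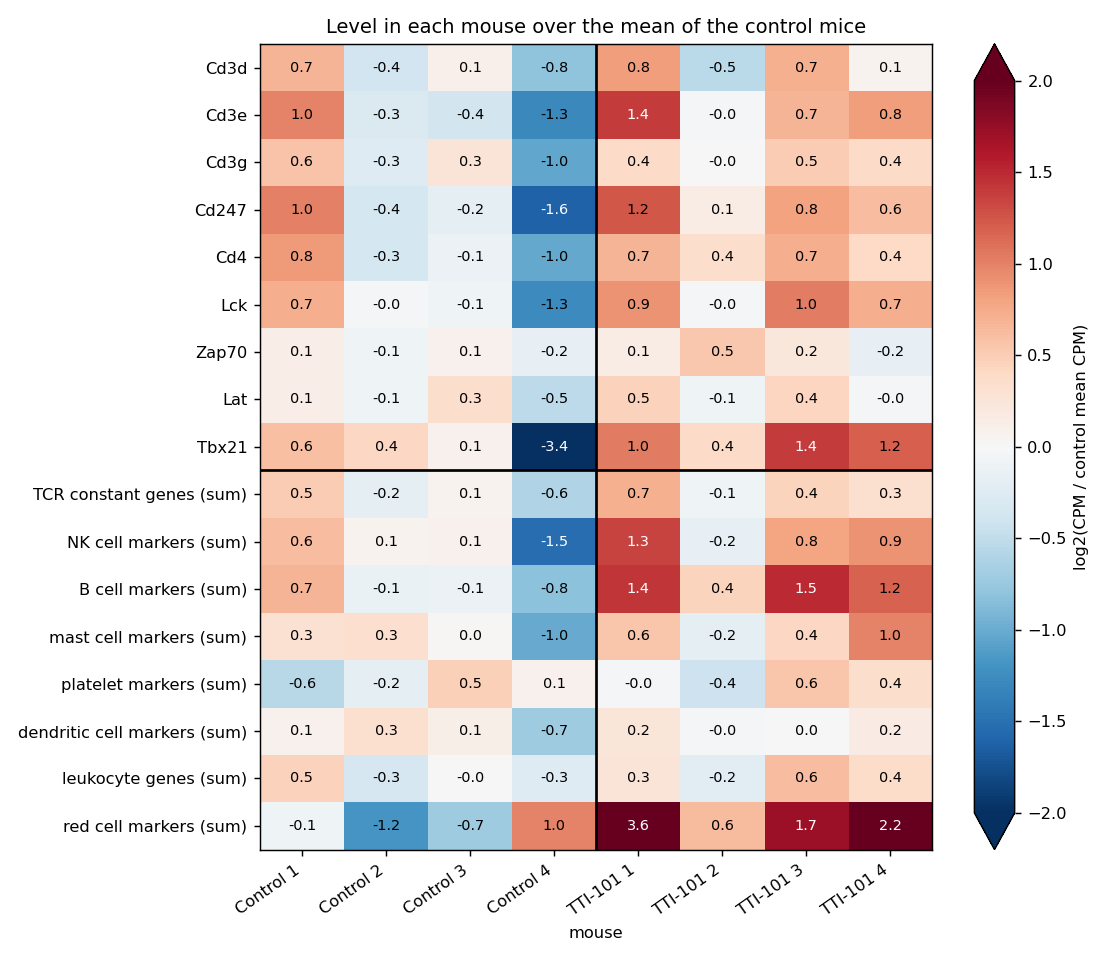
Log2 of the CPM in each mouse (columns) over the mean of the 4 control mice, for the 9 genes and for the summed CPM of TCR constant genes and of marker genes of other cells (rows). Control 4 is blue for all 9 genes, Control 1 and TTI-101 1 and 3 are red, and the NK and B cell rows have the same low and high mice, while colors beyond 2 on the log2 scale are not told apart.

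Within the groups, 8 of the 9 genes varied together from mouse to mouse. Over the 36 pairs, Pearson's r of log2 CPM after each group's mean was subtracted ran from 0.0037 to 0.970 with a median of 0.834, across 8 mice that share the low Control 4. The highest was between Cd3e and Cd247, and the lowest was between Cd3e and Zap70. Against the mean log2 CPM of Cd3d, Cd3e and Cd3g, r was 0.980 for Cd247, 0.961 for Lck, 0.925 for Cd4, 0.803 for Lat, 0.796 for Tbx21 and 0.0837 for Zap70. These are descriptions of 8 points, and genes of many leukocytes lay in the same range. Stat3 had an r of -0.47.

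**Figure D4:**
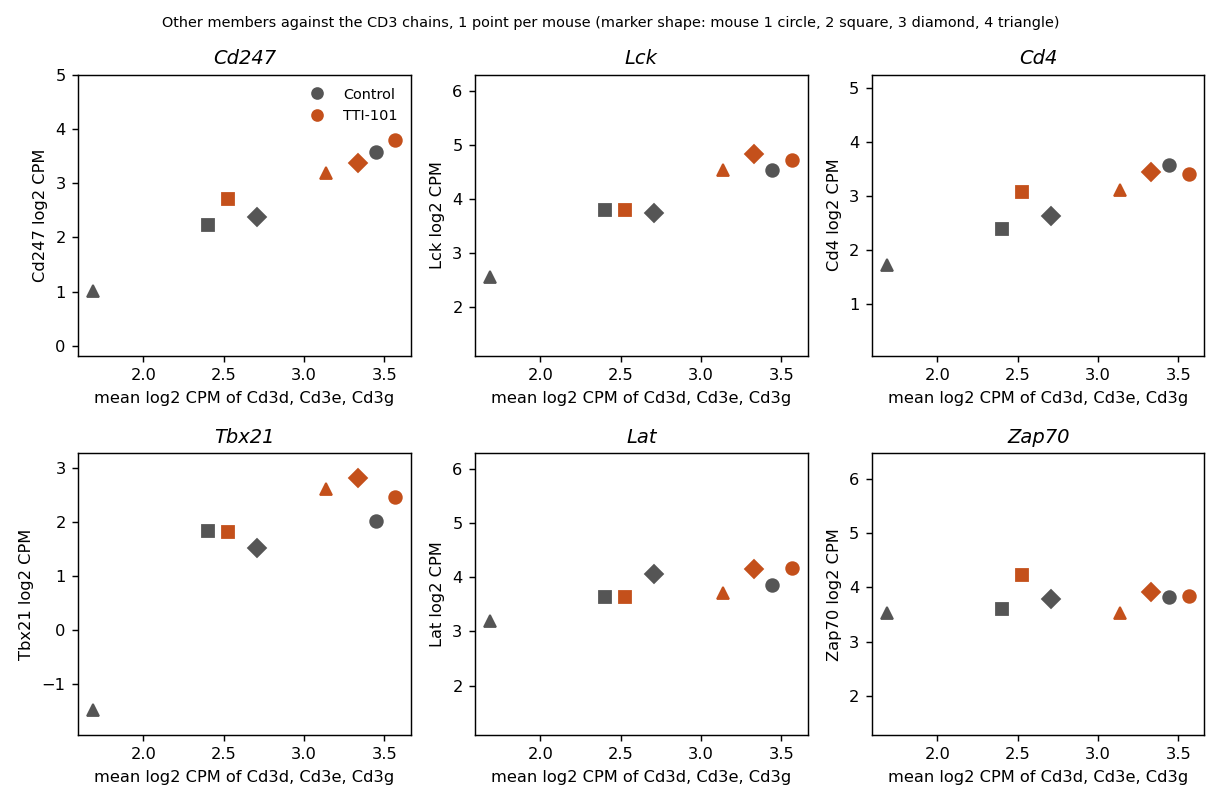
Log2 CPM of 6 genes (vertical axis) against the mean log2 CPM of Cd3d, Cd3e and Cd3g (horizontal axis), with 1 point per mouse and vertical axes of equal span. Cd247, Lck and Cd4 climb with the CD3 mean in both groups, Tbx21 falls away in Control 4, and Zap70 stays level.

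Outside the members, the 5 genes most like the CD3 mean by the same measure over the 8 mice were Cd6 (r = 0.995), Trbc1 (0.993), Ms4a1 (0.989), Tlr6 (0.986) and Nsg2 (0.986). Cd6 encodes a T cell surface receptor and Trbc1 a constant region of the TCR beta chain. Ms4a1 encodes CD20, a B cell protein, and it was at 4.41 to 36.3 CPM in control and 18.5 to 68.4 CPM in treated lungs. Trac had an r of 0.961, Cd8a of 0.944, Cd79a (B cells) of 0.921, Ncr1 (NK cells) of 0.900 and Ptprc (CD45, all leukocytes) of 0.891.

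Levels can be compared between genes only after division by gene length, here as CPM per kilobase. In control lungs the order was Lck (4.78 ± 2.43), Lat (4.74 ± 1.17), Zap70 (4.28 ± 0.42), Cd3d (3.40 ± 1.52), Cd3g (2.29 ± 0.99), Cd4 (1.62 ± 0.91), Cd3e (1.42 ± 0.97), Cd247 (1.10 ± 0.79) and Tbx21 (1.05 ± 0.66), each as mean ± SD of 4 mice. Neighbors in this order differed by less than the larger of their SDs. In treated lungs Lck (7.82 ± 2.21), Lat (5.51 ± 1.09), Zap70 (4.95 ± 0.97), Cd3d (4.38 ± 1.72) and Cd3g (2.88 ± 0.42) kept their places, followed by Cd3e (2.48 ± 0.97), Cd4 (2.37 ± 0.31), Tbx21 (2.18 ± 0.59) and Cd247 (1.86 ± 0.58). Of the neighbors in treated lungs, Lck and Lat differed by more than the larger SD, although their ranges of 4.72 to 9.74 and 4.47 to 6.51 overlapped. Among all genes tested the members' levels per kilobase lay between percentiles 23.6 and 56.0.

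Most genes of the rest of the pathway and of T cell identity and helper lineages had positive differences too. Of 105 genes in 9 lists, 99 were tested, and 86 of these had a positive log2 fold change, with a median of 0.44. Some lists follow the receptor from its constant regions to the genes it induces. The others hold T cell identity genes, Th1 genes and factors of other T helper lineages. In edgeR's quasi-likelihood test, 12 of the 99 were higher at an unadjusted p under 0.05 (12.1% of those tested, against 3.02% of all genes). Of these 12, 3 were T cell identity genes, 1 was a Th1 gene and 1 was a factor of another T helper lineage. At the same threshold 1 of the 99 was lower, against 3.58% of all genes. At an adjusted p under 0.05 there were 0. The 12 became 46 without Control 1 (46.5% against 7.15% of all genes) and 34 without TTI-101 2 (34.3% against 6.63%). They became 7 without Control 3 (7.07% against 1.85%) or without TTI-101 4 (7.07% against 2.23%), and 4 without TTI-101 3 (4.04% against 1.03%). The share of all genes thus moved in the same direction as the count. Without Control 4 there were 9 (9.09% against 1.92% of all genes), with a median log2 fold change of 0.27.

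Of the 4 TCR constant genes in the count file, 3 had a positive log2 fold change, with a median of 0.33. Trac, the constant region of the alpha chain that pairs with the CD3 chains in most T cells, was at 10.8, 5.32, 7.43 and 4.48 CPM in control mice 1 to 4 and at 12.7, 8.29, 13.5 and 10.5 CPM in treated mice 1 to 4. Its log2 fold change was 0.68 (SE 0.29, adjusted p = 0.657 in edgeR). Trdc, of the delta chain of gamma delta T cells, had a log2 fold change of -0.08 (SE 0.29).

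The other kinases and phosphatases at the receptor had positive log2 fold changes in 13 of 13, with a median of 0.44. Csk, which holds LCK inactive, was at 93.0 ± 19.4 CPM in control and 130 ± 28.2 CPM in treated lungs (SD, n = 4 each), for a log2 fold change of 0.49 (SE 0.20). Ubash3b, a phosphatase that acts on ZAP-70, had a log2 fold change of 0.15 (SE 0.29). Of the adaptors and effectors that assemble on LAT, 23 of 24 had positive log2 fold changes, with a median of 0.45. Map4k1, which encodes the kinase HPK1, a brake on TCR signaling, was at 16.2 ± 6.72 CPM in control and 29.5 ± 6.52 CPM in treated lungs (SD, n = 4 each), for a log2 fold change of 0.86 (SE 0.31). Dgkz, a kinase that removes diacylglycerol, and Sh2d2a, an LCK-binding adaptor, had log2 fold changes of 0.52 and 0.73. Plcg1, phospholipase C gamma 1, was at 179 CPM in control and 180 CPM in treated lungs, with a log2 fold change of 0.00 (SE 0.14). All these genes had adjusted p-values of 0.657 or higher in edgeR's quasi-likelihood test.

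The calcium, NF-kB, Ras and NFAT branches, whose genes are used by most cells, had log2 fold changes with a median of 0.12 over 16 genes, 12 of them positive. Carmil2, a partner of CD28 in T cells, had the lowest p, at 6.81 ± 3.49 CPM in control and 14.0 ± 2.72 CPM in treated lungs (SD, n = 4 each), for a log2 fold change of 1.03 (SE 0.36). Ppp3cb, a calcineurin subunit, had a log2 fold change of 0.00 (SE 0.16). Of the other coreceptors and costimulatory receptors, 10 of 12 were positive, with a median of 0.73, from Cd6 at 0.89 (SE 0.41) as the gene with the lowest p to Icos at -0.14 (SE 0.30). Among transcripts induced after receptor engagement, 6 of 7 tested were positive, with a median of 0.55. Nr4a1, an immediate early gene of the receptor that many cell types induce, was at 47.6, 77.2, 113 and 45.8 CPM in control mice 1 to 4 and at 96.5, 121, 205 and 170 CPM in treated mice 1 to 4. Its log2 fold change was 1.06 (SE 0.32, adjusted p = 0.657 in edgeR), and Il2ra had 0.17 (SE 0.39).

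T cell identity genes were positive in 9 of 9, with a median of 0.72. Ccr7, the lymph node homing receptor of naive T cells that B cells also make, was at 17.1 ± 7.42 CPM in control and 39.6 ± 15.8 CPM in treated lungs (SD, n = 4 each), for a log2 fold change of 1.21 (SE 0.37), and Bcl11b, a T lineage factor that B cells lack, had 0.44 (SE 0.36). The Th1 genes other than Tbx21 had a median of 0.23, with 7 of 10 tested positive. That median was 0.04 without Control 2, where 5 of 10 were positive, and 0.68 without Control 1. With all mice, 1 of the 10 was higher and 1 was lower at an unadjusted p under 0.05 (3.02% and 3.58% of all genes). The higher one was Hlx, a partner of T-bet that other lung cells express too, with a log2 fold change of 0.71 (SE 0.25). Il12rb1 had 0.04 (SE 0.43), and Ifng, the cytokine T-bet drives, had too few counts to be tested. The factors of other T helper lineages were positive in 3 of 4, with a median of 0.03. Foxp3 of regulatory T cells was at 0.645 ± 0.339 CPM in control and 1.62 ± 0.493 CPM in treated lungs (SD, n = 4 each). These values rest on 4 to 29 counts per control library and 24 to 36 per treated library. The log2 fold change of Foxp3 was 1.28 (SE 0.46), and Gata3 of Th2 cells had 0.01 (SE 0.34). All these genes had adjusted p-values of 0.657 or higher in edgeR's quasi-likelihood test.

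**Figure D5:**
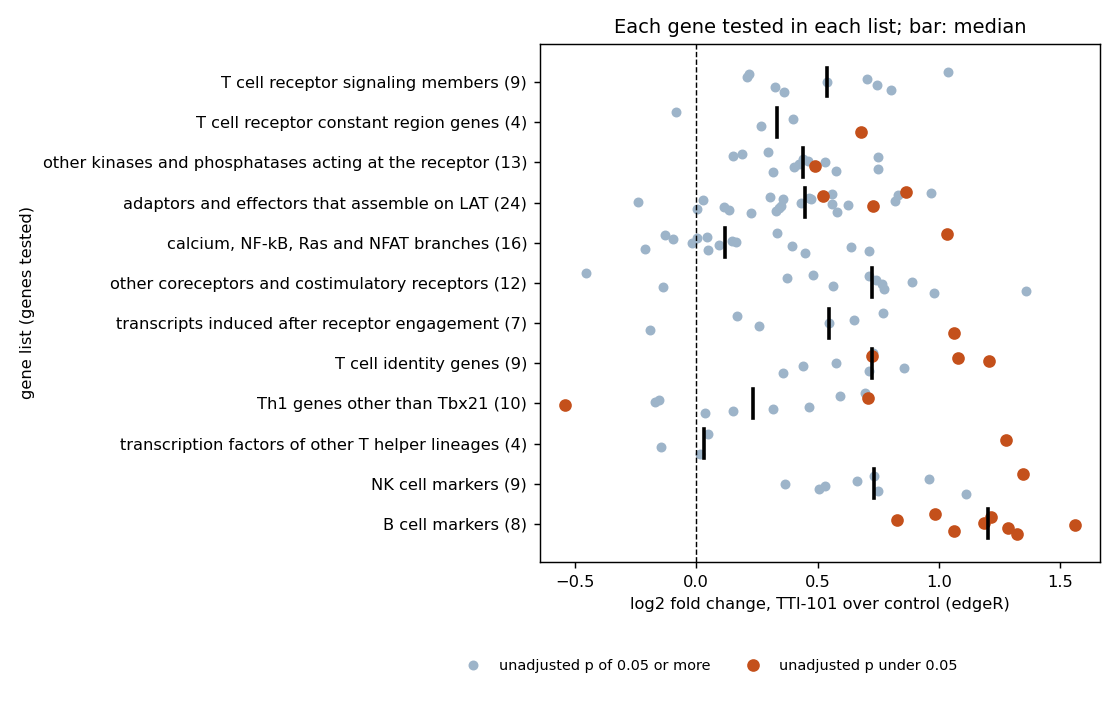
Log2 fold change of every tested gene (points) in the members and 11 other lists (rows, with the number tested), TTI-101-treated over control, with the median of the list (bar). The 9 members lie between 0.21 and 1.04, no member is orange (an unadjusted p under 0.05), and all 8 B cell markers are orange, with a median of 1.20.

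The markers of NK, B and mast cells had positive log2 fold changes in every gene tested, those of platelets and dendritic cells were mixed, and their part in the members' levels was not tested. The T cell markers Cd3d, Cd3e, Cd3g, Trac, Thy1 and Bcl11b were counted in every library. NK cells express Cd247, Lck, Zap70, Lat and Tbx21 as well, and the median log2 fold change of their 9 markers was 0.73, all 9 positive, with a summed level of 17.0 to 75.5 CPM in control and 43.8 to 125 CPM in treated lungs. Control 4 had the lowest NK sum and TTI-101 1 the highest, and none of these markers was at 0 in a library. Prf1 (perforin) had the lowest p of them, with a log2 fold change of 1.34 (SE 0.51), and Klra9 the highest, with 0.36 (SE 0.47). The NK median was 0.43 without Control 4 and 1.01 without Control 1. The 8 B cell markers had a median of 1.20, with all 8 higher at an unadjusted p under 0.05, where 3.02% of all genes passed, and summed to 111 to 314 CPM in control and 267 to 551 CPM in treated lungs. Without Control 2, Control 3 or TTI-101 1 the count was 5 of 8, where 2.99%, 1.85% and 2.27% of all genes passed. Cd79a, a chain of the B cell receptor complex, had a log2 fold change of 1.32 (SE 0.31) and Cr2, a complement receptor, 1.22 (SE 0.53), as the B cell markers with the lowest and the highest p.

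Mast cells and platelets express Lat. Of the 7 mast cell markers 5 were tested, with a median of 0.68 and sums of 70.3 to 179 CPM in control and 125 to 283 CPM in treated lungs, and Tpsb2, Ms4a2 and Fcer1a were at 0 in at least 1 library. Cpa3, a mast cell protease, had a log2 fold change of 1.01 (SE 0.49) and Tpsb2, a tryptase, 0.17 (SE 1.00). The 6 platelet markers had a median of 0.58, with 5 positive, and sums of 30.5 to 62.2 CPM and 33.6 to 66.0 CPM. At an unadjusted p under 0.05, 2 were higher and 1 was lower (3.02% and 3.58% of all genes). The lower one was Pf4, platelet factor 4, at 11.4, 15.2, 23.2 and 26.0 CPM in control mice 1 to 4 and at 8.48, 9.37, 13.5 and 10.8 CPM in treated mice 1 to 4. Its log2 fold change was -0.85 (SE 0.28, unadjusted p = 0.0113, adjusted p = 0.657 in edgeR), with all 4 treated mice below the control mean. Gp9, a platelet glycoprotein, had the highest p, with a log2 fold change of 0.44 (SE 0.46).

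Some dendritic cells of the mouse express Cd4. The median log2 fold change of 7 dendritic cell markers was 0.11, with sums of 57.8 to 118 CPM in control and 91.9 to 112 CPM in treated lungs. Of the 7, 4 were positive, and the median was -0.07 without Control 4. The 1 that passed an unadjusted p of 0.05 was lower (3.58% of all genes): Xcr1, a chemokine receptor of cross-presenting dendritic cells, was at 5.80, 7.89, 3.99 and 6.14 CPM in control mice 1 to 4 and at 2.71, 4.44, 3.39 and 3.10 CPM in treated mice 1 to 4. Its log2 fold change was -0.80 (SE 0.28, unadjusted p = 0.0156, adjusted p = 0.657 in edgeR), with all 4 treated mice below the control mean. Flt3, a growth factor receptor, had the highest p, with -0.09 (SE 0.25). The 6 genes of all leukocytes had a median of 0.39 and sums of 648 to 1120 CPM and 705 to 1252 CPM, with overlapping groups. Of these, Coro1a had a log2 fold change of 0.67 (SE 0.32) and Lcp1 of -0.07 (SE 0.23). Red cell markers had the largest median, 2.50 over the 5 tested, with sums of 58.5 to 264 CPM in control and 205 to 1586 CPM in treated lungs, highest in TTI-101 1. The globin genes Hbb-bs and Hba-a2 had log2 fold changes of 2.46 (SE 0.61) and 1.48 (SE 0.71), as the red cell markers with the lowest and the highest p. All markers named here had adjusted p-values of 0.657 or higher in edgeR's quasi-likelihood test.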

How the data were processed

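RNA-seq libraries were made with a stranded poly(A) kit from whole lungs of CC-LR mice, 1 per mouse, of which 4 were controls and 4 had received TTI-101. The authors deposited whole-number counts per Ensembl gene with no normalization, and the deposited columns were matched to mice by their library names, with 0 columns left unused. Per the labels, the submitters' processing notes name STAR, DESeq2 and the build mm10. The counting tool, its strand setting and the versions are not given in the sources used here. The authors' file also gives each gene's length, which was used for levels per kilobase.

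The tools were edgeR 4.0.16, DESeq2 1.42.0 and limma 3.58.1, run in R 4.3.3. After filterByExpr (minimum count 10), 17138 genes remained for edgeR. TMM factors scaled the libraries, and robust quasi-likelihood F-tests without covariates compared the groups. Log2 CPM used a prior count of 2. Levels relative to Cd3e were compared by exact permutation over 70 assignments, or 35 with a mouse left out, which can go no lower than 0.0286. The fits were tested on simulated data. Total counts of 16075855 to 26873509 limit precision most for low genes such as Tbx21. The labels do not say whether mice shared a litter. The p-values treat the mice as independent, which could not be checked. No 2 libraries of the same group agreed within sampling noise.

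The members and gene lists were chosen with earlier results of these data known. The genes named are the members, Cd8a, Stat3, the gene with the lowest and the gene with the highest p of each list, any list gene with an adjusted p under 0.05, and the 5 genes most like the CD3 mean. Dgkz, Sh2d2a, Ifng, Ms4a2, Fcer1a, Ncr1, Ptprc, Cd79a, Xist and the epithelial markers were named beside them. Of 8 TCR constant genes listed, 4 were found by name. Protein sequences were not used here, and 1 gene of the lists is not reported here. Alternatives were DESeq2, limma-voom, other scalings and filters, protein-coding genes, a replicate block, Xist as a covariate, a prior count of 0.5, other denominators and each library left out.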

Additional observations from a re-analysis of the deposited data

Results flagged for a closer look

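For each measure and group of 4, the distance of the most extreme mouse from the next was divided by the group's range and set against Dixon's 95% critical value, which was exceeded in 8 of 146 groups, where chance gives 7.3, about 1 in 20.

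The log2 ratio of Cd4 to Cd8a was 0.571 in TTI-101 2, and the nearest treated mouse was at -0.478. The same mouse had a summed level of 429 CPM for the other kinases and phosphatases at the receptor, where the nearest treated mouse had 688 CPM, and a Gata3 level of 5.88 CPM, where the nearest had 11.6 CPM. Bcl11b was at 11.6 CPM in Control 1 and at 5.56 CPM in the nearest control mouse. The NK receptor gene Klra9 was at 0.640 CPM in Control 4 against 3.11 CPM in the nearest control, and the globin gene Hba-a2 was at 30.4 CPM in Control 4 against 6.71 CPM. Control 1 had a total of 26873509 counts against 18220467 in the next control library. Mitochondrial genes held 5.56% of the counts of Control 4 against 2.85% in the nearest control. None of the 9 members' CPM values was past the critical value in either group.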

How the results depend on the processing

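The 9 members' log2 fold changes kept their sign and their side of the threshold for adjusted p-values in all 152 alternative values, which include 72 with a mouse left out; Tbx21 gave no value with at least 10 counts required in every library. The number of members higher at an unadjusted p under 0.05 was 0, but 2 in DESeq2 and 0 to 4 with a mouse left out, and the number with an adjusted p under 0.05 was 0 to 0. Their median of 0.54 ran from 0.32 to 0.99. For the 99 genes of the pathway and of T cell identity and lineage, the count was 12 (3.02% of all genes). It was 19 in DESeq2 (2.63%) and 4 to 46 with a mouse left out (1.03% to 7.15%). Mice of the same number deviated from their group means with correlations of 0.393, 0.0822, 0.159 and 0.0707. These values are all positive, and they do not decide whether mice of the same number were paired. With a replicate block, 2 members (Cd3e and Cd247) and 19 of the pathway, identity and lineage genes passed (3.98% of all genes). The log2 fold change of Tbx21 was then 1.25. Of the 4 control mice, 2 were most like the treated mouse of their own number. Relative to Cd3g in place of Cd3e, Cd4 differed by 0.26 and Lck by 0.39, and relative to Cd3d by 0.31 and 0.44, which turned the sign. With a mouse left out, Cd247 to Cd3e ran from -0.060 to 0.10, Lck to Cd3e from -0.27 to 0.012, Lat to Cd3e from -1.06 to -0.53, Zap70 to Cd3e from -1.11 to -0.46 and Tbx21 to Cd3e from 0.024 to 0.81. Ppp3cb turned to -0.0029 in limma-voom and -0.0031 with the replicate block. With a mouse left out, genes near 0 changed sign: Trdc (-0.25 to 0.080), Ubash3b (-0.00068 to 0.41), Plcg1 (-0.051 to 0.064), Ppp3cb (-0.10 to 0.084), Icos (-0.27 to 0.16), Il2ra (-0.10 to 0.50), Il12rb1 (-0.15 to 0.62), Gata3 (-0.20 to 0.26), Tpsb2 (-0.24 to 0.87), Flt3 (-0.25 to 0.032), Lcp1 (-0.21 to 0.094) and Stat3 (-0.14 to 0.0036). The causes of these changes were not tested. In the order of levels, 4 of 9 members kept their place in control lungs when medians replaced means. The protein-coding setting gave no value for TCR constant genes. With 4 mice a group the 95% intervals of all 9 members included 0, and the widest was that of Tbx21, which rested on 642 counts.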
